A study of Mus musculus with 6 samples.

Results

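Open chromatin of the upper and lower jaw primordia of the mouse embryo was compared, through peak lists cut to the same length, to ask which accessible regions carried one jaw label and not the other. All samples were freshly dissected face tissue of wild-type embryos at stage E11.5, with no allele or agent added, and the labels give the cell type as mixed. Of the 6 libraries of the series, 4 entered the comparison, 2 labelled maxillary process and 2 labelled mandibular process, and the other 2, labelled nose, served only as an outside reference. Each library was a bulk ATAC-seq experiment on about 50000 nuclei, in which the transposase Tn5 cuts accessible DNA, read as single-end reads of 50 bp. Whether the 2 libraries per label are separate embryos or pools is not stated, so the agreement between them may be technical in part. The names of the deposited jaw lists carry the code of the opposite jaw. Groups followed the sample labels, and "maxillary label" and "mandibular label" are used throughout.

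A peak list holds one line per summit, sorted here by the −log10 q that the authors' peak caller gave it, and the best 200000 lines of each list were kept. Overlapping peaks of the 4 jaw lists were merged at 1 bp into 200712 regions. A region was called differing when both libraries of one label had a peak in it and neither library of the other did. Of the 200712 regions, 13536 (6.74%) carried the maxillary label alone and 11077 (5.52%) the mandibular label alone, so that 55.0% of the 24613 differing regions were maxillary. This excess depended on how the lists were cut: whole lists gave 13662 maxillary- and 21019 mandibular-label regions (39.4% maxillary), and keeping every line tied at the end of a list 12587 and 12386 (50.4%). With 1 library left out, the maxillary share was 61.5% and 73.3% without maxillary replicates 1 and 2 and 37.3% and 40.3% without mandibular replicates 1 and 2. A further 61317 regions were called in all 4 jaw libraries, and 79842 (39.8%) in 1 library only. Presence or absence is a call against a limit within each list, and the read depth is unknown. With 2 libraries against 2, an exact two-sided permutation test of a single region cannot give a p under 0.333, so the differing regions are a description of these libraries.

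The maxillary process gives rise to most of the upper jaw and cheek and contributes the palatal shelves, whereas the mandibular process forms the lower jaw. Both belong to the first pharyngeal arch and are filled with neural crest mesenchyme that expresses no Hox genes. The lower part of the arch is specified by endothelin-1 signalling, which acts through the receptor Ednra and the homeobox genes Dlx5 and Dlx6 to turn on Hand2, a basic helix-loop-helix factor. Hand2 and its relative Hand1 are therefore textbook markers of the mandibular side, as is Pitx1, and Pou3f3, Nr2f1 and Nr2f2 are among those of the maxillary side. Alx1 and Alx4 mark the frontonasal mesenchyme.

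A pair of measures did not follow the labels: list length set a single library apart, and lines on chromosome Y followed the replicate number. The list of maxillary replicate 1 was the shortest of the 4 jaw lists (219779 lines against 281768 to 299731), reached down to a −log10 q of 2.01 (2.58 to 4.31 in the others) and had a median peak width of 183 bp (222 to 305 bp in the others). Lines on chromosome Y numbered 54 to 72 in the replicate 1 libraries and 21 to 23 in the replicate 2 libraries of all 3 labels, a split along the replicate number and not along the label. The part of either measure in the differing regions was not tested. The Jaccard index, the shared fraction of the bases covered by a pair of lists, was 0.557 for the pair of maxillary-label libraries and 0.606 for the mandibular-label pair, against 0.476 to 0.513 for the 4 pairs of opposite jaw labels.

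Among the genes that check the labels, Hand2 on chromosome 8 had the largest net number of differing regions, and 5 maxillary-label regions around it are shown first. The 3 upstream regions had the best ranks in the 2 windows of 500 kb that hold and precede the gene, and the last 2 are the ones nearest to its start site, which alone of the 5 count as within 100 kb of it. The proximal and middle ones are intergenic, 235 and 268 kb before the Hand2 start site at 57320982, the distal one is intergenic and nearest to Fbxo8 at 184 kb, the next lies in an intron of the noncoding gene Hand2os1 and the last in intergenic sequence after the gene. Each is the strongest summit with 100 bp on both sides, from the mm10 (GRCm38) plus strand. Capitals mark the letters CAGCTG, an E-box of the kind that basic helix-loop-helix factors bind, or the Runx motif TGTGGTT, in the distal region on the opposite strand. The nuclear receptor motif AGGTCA and the homeodomain motif TAATTA were looked for as well, on either strand. All 5 regions were called in both maxillary-label libraries and in neither mandibular-label library.
Hand2 middle upstream region, chr8:57052699-57052899: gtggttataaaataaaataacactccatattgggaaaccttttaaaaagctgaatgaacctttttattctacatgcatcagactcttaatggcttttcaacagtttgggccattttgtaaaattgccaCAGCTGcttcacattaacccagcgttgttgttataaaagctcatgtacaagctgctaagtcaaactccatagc
Hand2 distal upstream region, chr8:56735058-56735258: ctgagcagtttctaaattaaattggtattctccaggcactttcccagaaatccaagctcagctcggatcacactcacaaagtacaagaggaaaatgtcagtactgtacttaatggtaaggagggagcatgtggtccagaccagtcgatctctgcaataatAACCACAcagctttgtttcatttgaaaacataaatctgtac
Hand2 proximal upstream region, chr8:57085768-57085968: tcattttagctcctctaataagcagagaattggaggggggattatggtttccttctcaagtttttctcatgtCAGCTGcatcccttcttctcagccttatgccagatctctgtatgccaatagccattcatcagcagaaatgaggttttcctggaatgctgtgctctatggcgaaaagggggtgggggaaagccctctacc
Hand2os1 intron region, chr8:57302097-57302297: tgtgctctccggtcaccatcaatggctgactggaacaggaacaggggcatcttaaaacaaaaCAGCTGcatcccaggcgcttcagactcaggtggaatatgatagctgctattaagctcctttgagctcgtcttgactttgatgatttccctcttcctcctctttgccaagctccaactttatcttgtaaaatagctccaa
Hand2 downstream region, chr8:57328950-57329150: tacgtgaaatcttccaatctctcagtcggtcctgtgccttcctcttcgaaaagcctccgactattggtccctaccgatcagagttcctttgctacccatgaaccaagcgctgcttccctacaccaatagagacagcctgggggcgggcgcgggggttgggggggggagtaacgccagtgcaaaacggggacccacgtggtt
Of these 5 windows, 3 hold CAGCTG once, the distal upstream window holds the Runx motif once and no CAGCTG, and the downstream window, the one richest in G and C, holds none of the 4 motifs.

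Around Hand2, differing regions carried mostly the maxillary label. Within 100 kb of the Hand2 start site, 5 differing regions had Hand2 as the nearest gene, all of them maxillary, and 0 were mandibular. Counting every differing region within 500 kb on both sides of the start site, whatever its nearest gene, 23 were maxillary and 6 mandibular. In the 2 adjacent windows of 500 kb that hold and precede the gene (56500001 to 57500000), 30 regions were maxillary and 2 mandibular, and 33 were called in all 4 jaw libraries. Both windows were singled out by their small p among all windows, so the megabase was chosen after its values were seen. Of the 122 regions merged there, 92 and 82 were called in the maxillary-label libraries and 46 and 52 in the mandibular-label ones, with 45 and 50 in the nose libraries. The maxillary-label libraries lay above the mandibular-label ones, which follows in part from the choice of windows by their maxillary-label regions. The regions were merged from the jaw lists alone, so a peak found only in nose could not count. Over all merged jaw regions, the nose libraries called 94618 and 94126. The maxillary-label libraries called 129162 and 110341 of them and the mandibular-label ones 111659 and 115193, so that the labels overlapped.

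**Figure D1:**
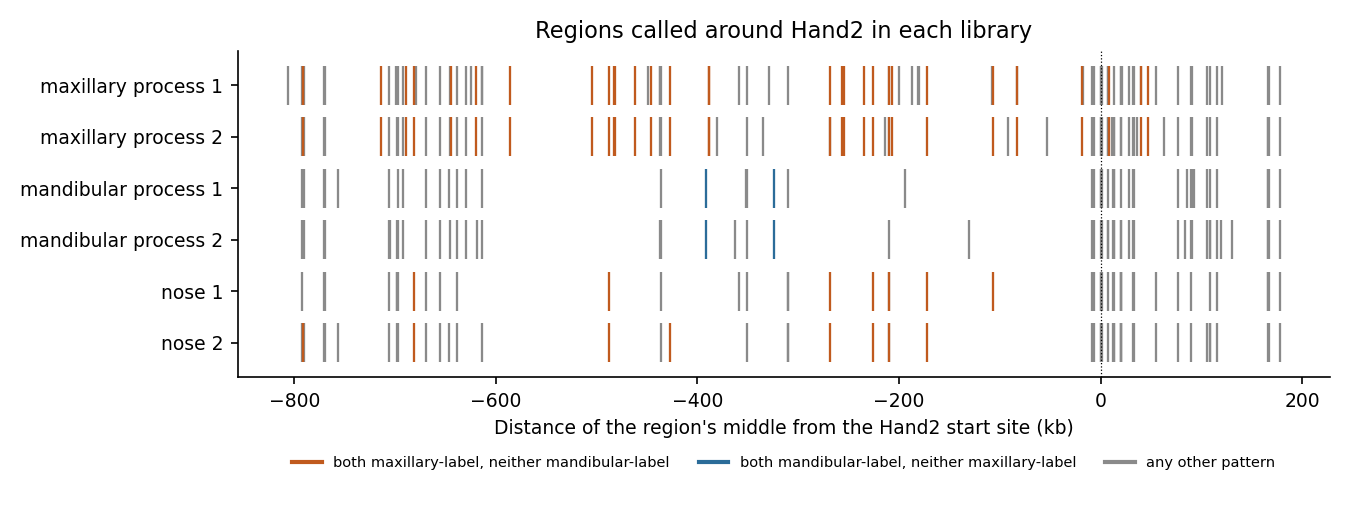
Regions called in each of the 6 libraries (rows) by distance of the region's middle from the Hand2 start site in kb, negative values lying before the gene. Orange lines mark the 30 maxillary-label regions, blue lines the 2 mandibular-label regions and grey lines all other patterns; the stretch from 600 to 50 kb before the gene is filled in the top 2 rows and nearly empty in the mandibular rows.

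Most of the difference lay in the stretch before Hand2. Between 600 and 50 kb before the start site, limits set after the map was drawn, 35 and 30 regions were called in the maxillary-label libraries and 7 and 8 in the mandibular-label ones. The nose libraries had 12 and 11 there, between the jaw labels and closer to the mandibular one, with peaks found only in nose left out. From 50 kb before the start site onward, 31 and 32 regions were called in the maxillary-label libraries against 25 and 28, and 19 of the 44 regions were shared by all 4. Thus the gene and its flank were accessible under both labels, and the Hand2 promoter was called in 4 of 4 jaw libraries.

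The 5 regions nearest to Hand2 ranged from weak to moderate. The region at 57328940 to 57329255, 8.07 kb after the start site, had a −log10 q of 7.11 in maxillary replicate 1 and 7.76 in replicate 2. It also had weaker peaks in both whole mandibular-label lists and both whole nose lists, below the best 200000 lines. The Hand2os1 intron region, from 57301982 to 57302336, reached 4.96 and 10.6, at ranks 85848 and 86339, and stood in 1 whole mandibular-label list. The other 3, at 57238150 to 57238505, 57360950 to 57361319 and 57368007 to 57368835, had no peak in the whole mandibular-label or nose lists. Over the megabase, 22 of the 30 maxillary-label regions were absent from both whole mandibular-label lists and 9 stood in at least 1 nose list. Their worse rank of the pair had a median of 119688, and the best was 50999, so none was among the strongest peaks of its list.

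Tested against the genome-wide split, the Hand2 locus did not pass. The split of each window's differing regions was compared with 55.0% by an exact two-sided binomial test and adjusted by Benjamini-Hochberg over 2492 windows of 500 kb with at least 5 differing regions. The window that holds Hand2 had 14 maxillary and 0 mandibular regions (exact p = 0.000245, adjusted p = 0.306), and the window before it 16 and 2 (exact p = 0.00350, adjusted p = 0.695). Maxillary regions outnumbered mandibular ones in both windows under each of 16 alternatives, with 4 to 29 against 0 to 5 in the window of the gene. Leaving out 1 library gave this window 21 and 0 without maxillary replicate 1, 29 and 3 without maxillary replicate 2, 15 and 5 without mandibular replicate 1 and 16 and 4 without mandibular replicate 2. The adjusted p of that window was 0.126 to 0.945 over the 15 alternatives in which it had enough regions for the test. For the gene itself, 5 against 0 gave an exact p of 0.0688 and an adjusted p of 0.845.

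The other genes that are expected to separate the jaws gave a mixed answer. Hand1 and Pitx1 had 0 differing regions within 100 kb, and Dlx5 and Dlx6, which lie side by side, had 1 mandibular region each. Gsc, a homeobox gene downstream of endothelin-1, had 5 maxillary and 3 mandibular regions. On the maxillary side, Pou3f3 had 5 maxillary and 2 mandibular regions within 100 kb and 14 and 2 when every differing region within 500 kb was counted. Nr2f1 had 0 and 2, and Nr2f2 2 and 2. Of the frontonasal genes, Alx1 had 0 and 2 and Alx4 0 and 3. The wider count turned the order at some of these genes. Within 500 kb, Dlx5 had 6 maxillary and 4 mandibular regions, Nr2f1 8 and 6, Alx1 5 and 4 and Alx4 10 and 6. Hand2 had 23 and 6 at that distance, Hand1 3 and 1, Pitx1 7 and 2 and Gsc 12 and 8. Dlx6 was level there at 4 and 4 and Nr2f2 at 6 and 6, so that none of the 11 genes had more mandibular than maxillary regions. Among regions nearest to Pou3f3 and within 50 kb of it, the labels were level at 2 and 2. Among these 11 genes the label check pointed in no single direction: Hand2 leaned against the usual side of its gene and Pou3f3 toward it, and neither split passed the exact test (adjusted p = 1 for Pou3f3 and 0.845 for Hand2). Of the 11 genes, 9 had a promoter called in all 4 jaw libraries, the exceptions being Hand1 (3 of 4) and Nr2f2 (2 of 4).

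The Pou3f3 regions all lay within introns of noncoding genes. In Pantr1, 4 maxillary regions stood 46.2 to 90.4 kb from the start site, with −log10 q values of 2.92 to 3.91 in maxillary replicate 1 and 4.62 to 10.6 in replicate 2. Of these, 3 had no peak in either whole mandibular-label list. The fifth, 8.25 kb from the start, stood deeper in both of those lists and in both nose lists. The 2 mandibular regions were weak, with −log10 q values of 2.67 to 4.92.

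The Alx1 regions were few and much stronger, and their summits are shown because they ranked best among the mandibular-label regions of the check genes. Capitals again mark the 4 motifs, here TGTGGTT, the core letters of Runx sites, in the second window.
Alx1 intergenic region, chr10:102989043-102989243: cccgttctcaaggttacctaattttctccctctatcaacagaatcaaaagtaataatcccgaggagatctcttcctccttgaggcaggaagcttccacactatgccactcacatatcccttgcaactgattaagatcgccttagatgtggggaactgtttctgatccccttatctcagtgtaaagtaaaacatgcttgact
Lrriq1 intron region near Alx1, chr10:103129287-103129487: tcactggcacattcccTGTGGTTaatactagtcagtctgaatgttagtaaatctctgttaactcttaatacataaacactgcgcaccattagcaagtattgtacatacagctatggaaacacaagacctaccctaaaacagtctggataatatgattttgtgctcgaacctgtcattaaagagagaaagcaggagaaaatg
The intergenic region at 102988836 to 102989375, 39.6 kb from the Alx1 start site, had a −log10 q of 17.0 in mandibular replicate 1 and 13.9 in replicate 2. It stood in both nose lists and in 1 whole maxillary-label list. The Lrriq1 intron region, from 103129214 to 103129875 and 99.2 kb from Alx1, had values of 18.2 and 17.4 and had no peak in the whole maxillary-label or nose lists.

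**Figure D2:**
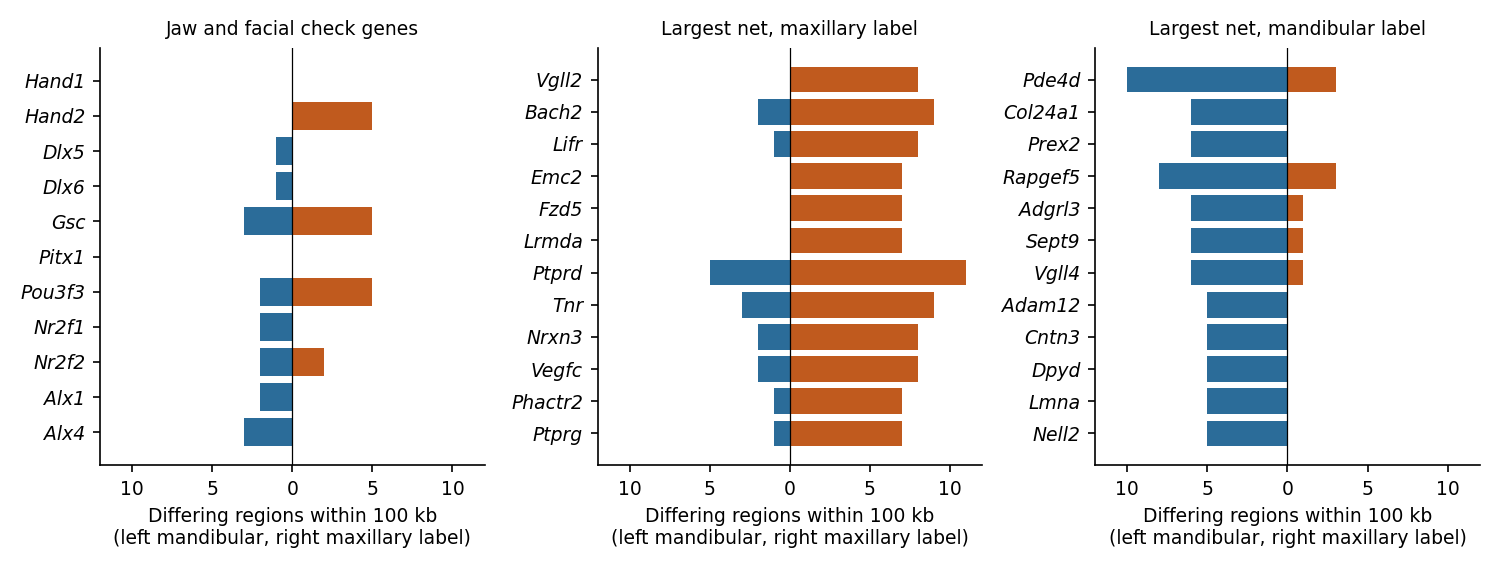
Differing regions nearest to each gene within 100 kb, counted to the right for the maxillary label (orange) and to the left for the mandibular label (blue), for the 11 check genes and for the 12 genes with the largest net number per label. Hand2 has 5 regions to the right and none to the left, and the longest bars are Ptprd with 11 maxillary and Pde4d with 10 mandibular regions.

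Across all genes, differing regions were scattered. Of 18089 genes with a region within 100 kb, 7301 had at least 1 differing region, 3508 with more maxillary and 2811 with more mandibular ones, and the median net number was 0. Among 504 genes with at least 5 differing regions, 0 passed the exact binomial test after Benjamini-Hochberg adjustment (0% called), and 24 had an unadjusted p under 0.05, with a smallest adjusted p of 0.637. Among the 2492 windows, likewise 0 passed (0% called), 113 had an unadjusted p under 0.05, and the smallest adjusted p was 0.172. Without mandibular replicate 1, 1 window passed, on chromosome 1 from 38 to 38.5 Mb with the start site of Rev1 (14 maxillary and 1 mandibular region, exact test with adjusted p = 0.0411, and 10 and 1 with all libraries). The counts set a limit of their own. For a lone gene to pass, 17 regions of the maxillary label or 12 of the mandibular label and none of the other would have been needed, and 0 and 13 of the genes had that many differing regions in all. Regions of one gene are also not independent.

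On the maxillary side, the gene with the largest net number was Vgll2, a cofactor of Tead factors expressed in the pharyngeal arches and in muscle, with 8 maxillary and 0 mandibular regions, 6 of them also in a nose list (exact p = 0.0101, adjusted p = 0.637). With the best 100000 lines its order turned, to 0 and 2, and with the best 50000 it was level at 1 and 1. Bach2, a transcriptional repressor of the Bach family, had 9 and 2, and Lifr, the receptor of leukaemia inhibitory factor, 8 and 1. Fzd5, a Wnt receptor, had 7 and 0, as did Emc2 and Lrmda, and Vegfc, the growth factor of lymphatic vessels, had 8 and 2. The adhesion and synaptic genes Ptprd (11 and 5), Tnr (9 and 3) and Nrxn3 (8 and 2) had many regions of both kinds. Phactr2 and Ptprg had 7 and 1 each. In a neighbouring measure, the window of Fzd5 and Creb1 on chromosome 1 (64500001 to 65000000) had 11 and 0. A window on chromosome 5 (104000001 to 104500000) had 10 and 0, and it holds Spp1, Dmp1, Ibsp, Dspp and Mepe, a cluster of genes for secreted phosphoproteins of bone and tooth. The window of Ptprg on chromosome 14 (11500001 to 12000000) had 10 and 0 (exact test, adjusted p = 0.695 for all 3 windows).

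On the mandibular side, the smallest p of any window belonged to chromosome 3 from 145000001 to 145500000, with 0 maxillary and 12 mandibular regions (exact p = 6.9e-05, adjusted p = 0.172). It holds Col24a1, a fibrillar collagen gene of forming bone, with Clca1, Clca2 and Odf2l. Col24a1 itself had 0 and 6 regions within 100 kb, 4 of them in a nose list. Prex2 also had 0 and 6, Pde4d, a cyclic AMP phosphodiesterase, had 3 and 10, and Rapgef5 3 and 8. Adgrl3, Sept9 and Vgll4, another Tead cofactor, had 1 and 6 each. Adam12, a metalloprotease of mesenchyme, Lmna, which encodes lamins A and C, and Cntn3, Dpyd and Nell2 had 0 and 5 each. Of the other windows, the one on chromosome 6 from 83000001 to 83500000 had 0 and 9 and is dense in genes, among them the homeobox genes Tlx2 and Lbx2 (exact test, adjusted p = 0.629). None of these genes or windows passed the test.

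Genes of known facial roles were read as lists, each by the maxillary share of the differing regions nearest to its members, beside 55.0% for all differing regions. No member of any of the 17 lists passed the test. The lower-jaw list had 11 maxillary and 6 mandibular regions (64.7%), and the upper-jaw list 15 and 14 (51.7%), with overlapping intervals of 41.3 to 82.7 and 34.4 to 68.6. The list for both jaws had 20 and 21. Within it, Ednra had 7 and 2 and Barx1, a homeobox gene of the molar region, 4 and 1, while Msx2 had 0 and 4 and Twist1, a basic helix-loop-helix factor of neural crest mesenchyme, 0 and 3. The frontonasal list had the lowest share, with 10 and 16 (38.5%, 95% Wilson interval 22.4 to 57.5), and its 8 members included Alx4 and the Wnt antagonist Sfrp2 (1 and 3). Palate and clefting genes were level at 23 and 22, with Osr2 at 5 and 2, Osr1 at 4 and 1, Tbx3 at 1 and 4 and Shox2 at 0 and 2.

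Facial signals leaned to the maxillary label with 18 and 8 (69.2%, interval 50.0 to 83.5). Bmp7 had 6 and 1 and Bmp2 5 and 1, both ligands that pattern the arch, whereas Wnt3, an ectodermal ligand needed for lip fusion, had 0 and 2. Nasal epithelium genes had 12 and 6, among them Sox2 with 4 and 0 and Sp8 with 3 and 0. Cartilage and bone genes had 9 and 6, with Sox6 at 3 and 0 and Runx2, the master factor of bone cells, at 2 and 0. Within 500 kb, Sox2 had 11 and 0, Sp8 9 and 4, Bmp2 13 and 7, Runx2 11 and 9 and Wnt3 2 and 8. The order turned at that distance for Bmp7 (10 and 11) and Sox6 (5 and 7). Sox2 kept its order in 12 of 17 alternatives. The intervals of these lists covered 55.0%, and they treat regions as independent.

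**Figure D3:**
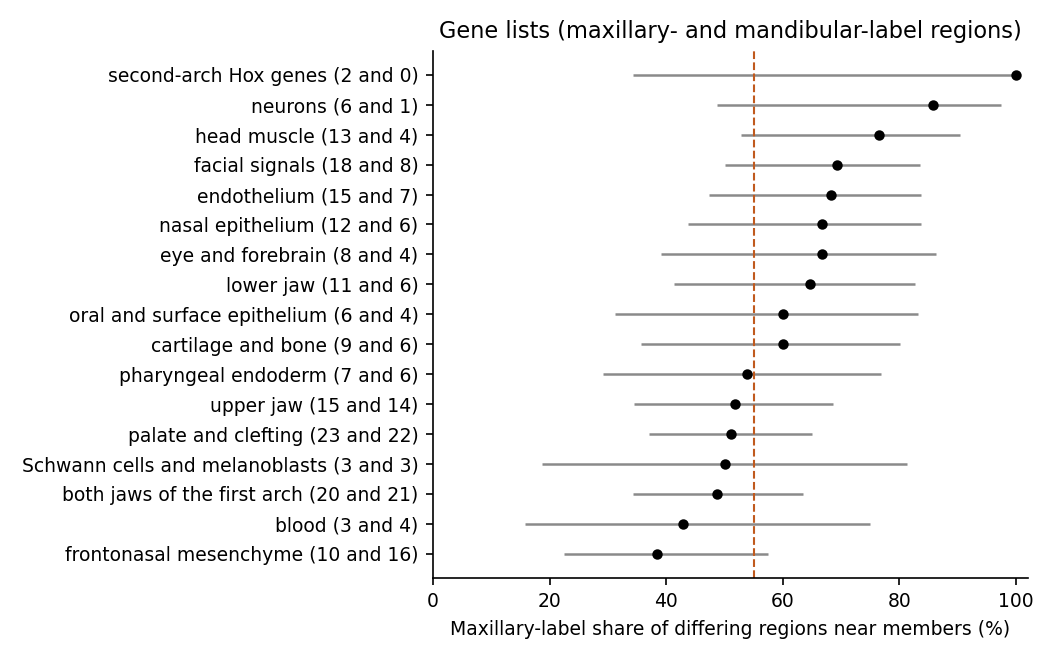
Maxillary-label share (%) of the differing regions within 100 kb of the members of each gene list, with 95% Wilson intervals; the counts of maxillary- and mandibular-label regions stand beside each name and the dashed line is the share over all differing regions, 55.0%. All 17 intervals cover the line, from frontonasal mesenchyme at 38.5% to the Hox list at 100%, which rests on 2 regions.

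Dissected processes hold more than neural crest mesenchyme, and in bulk tissue more cells of a type cannot be told apart from more accessible chromatin in the same cells. Lists of other cell types were therefore set beside the jaw genes. Head muscle genes had 13 maxillary and 4 mandibular regions (76.5%, interval 52.7 to 90.4), led by Tcf21 (4 and 0) and Mef2c (3 and 0), and regions of any pattern near the list numbered 101 and 85 in the maxillary-label libraries and 76 and 79 in the mandibular-label ones. Endothelial genes had 15 and 7, with Emcn at 3 and 1 and Cdh5, which encodes VE-cadherin, at 2 and 0, and 92 and 77 regions of any pattern against 72 and 73. Neuronal genes had 6 and 1, with Isl1 and Pou4f1 at 2 and 0 each, and 81 and 65 regions against 56 and 68. Eye and forebrain genes had 8 and 4, with Foxe3 at 3 and 0. Oral and surface epithelium had 6 and 4, with Trp63, which encodes the epithelial factor p63, at 5 and 2. Pharyngeal endoderm had 7 and 6, with Pax9 at 2 and 0. Schwann cells and melanoblasts had 3 and 3, blood 3 and 4, with the erythroid factor Gata1 at 0 and 2, and the Hox genes of the second arch 2 and 0. Maxillary replicate 1 called the most regions overall (129162 against 110341 to 115193 in the other 3), and the part of other cell types in the jaw results was not tested.

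Differing regions lay mostly away from start sites. The median distance to the nearest protein-coding start site was 68.4 kb for maxillary-label and 67.6 kb for mandibular-label regions, against 22.4 kb for regions called in all 4 jaw libraries. Introns held 42.7% and 42.8%, intergenic sequence 46.2% and 46.7%, and 40.3% and 40.7% lay beyond 100 kb of any start site. In these measures the labels differed by less than a percentage point. Differing regions were narrower than shared ones, with median widths of 338 and 281 bp against 521 bp, and 47.2% of maxillary-label and 40.2% of mandibular-label regions reappeared deeper in at least 1 whole list of the other label.

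Promoters, within 1 kb of a start site, were rare among differing regions, and their share depended on how deep the lists were read. Of maxillary-label regions 2.90% (392 regions, 95% Wilson interval 2.63 to 3.19) and of mandibular-label regions 5.07% (562 regions, 4.68 to 5.50) lay at a promoter, against 28.2% of regions shared by all 4. With the best 100000 lines the shares were 4.14% and 4.55%, and with the best 50000 lines their order turned, to 8.99% and 6.26%. The higher mandibular share was therefore seen in the deeper lists and not in the strongest peaks.

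**Figure D4:**
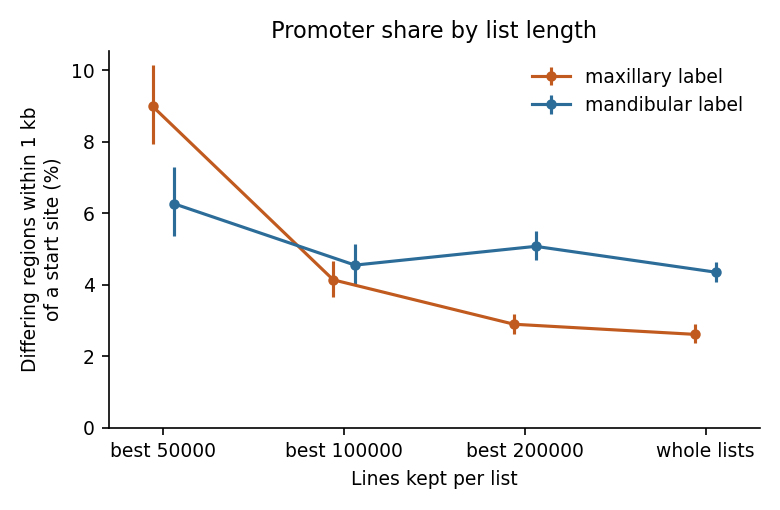
Share (%) of differing regions within 1 kb of a protein-coding start site, by the number of lines kept per list, for the maxillary label (orange) and the mandibular label (blue), with 95% Wilson intervals. The mandibular label is higher at 200000 lines (5.07% against 2.90%) and in whole lists, and lower at 50000 lines (6.26% against 8.99%).

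Among genes of the lists, 8 had a maxillary-label promoter region and 8 a mandibular-label one, named here after their values were seen. Such a region can lie beside another promoter region of the same gene. Counting any promoter region, Sox2, Pax9, Osr2 and Nr2f1 were called in all 4 jaw libraries and Shox2 in 3. Gata1 was called in 2. The maxillary set was Tfap2b, Hoxd3, Sox2, Tek, Myf5, Pax9, Tgfb3 and Osr2, of which Pax9, Tgfb3 and Osr2 are needed for the palate, Myf5 is a myogenic factor and Tek an endothelial receptor. The mandibular set was Ptprc, Shox2, Neurog2, Foxe1, Pax7, Nr2f1, Emx2 and Gata1. In it, Shox2 is, like Osr2, a member of the palate and clefting list. Ptprc, encoding CD45, and Gata1 mark blood cells, Neurog2 marks neuron precursors and Foxe1 is an epithelial factor. Most regions of both sets were weak peaks. The Ptprc promoter, for instance, had a −log10 q of 12.4 in mandibular replicate 1 but 5.23 in replicate 2, and Pax7 8.75 and 3.70. For Sox2, Tek and Osr2, peaks stood deeper in both whole mandibular-label lists, and for Nr2f1 in both whole maxillary-label lists.

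The nose libraries, which played no part in choosing the regions, called close to the same share of both kinds of differing region in at least 1 list, but not in every reading. Of maxillary-label regions 44.1% (interval 43.2 to 44.9) were called in at least 1 nose list and of mandibular-label regions 44.9% (44.0 to 45.8), against 94.7% of the regions of all 4 jaw libraries and 55.3% of all merged regions. Both nose lists held 22.4% (21.7 to 23.1) and 20.6% (19.8 to 21.3), so that the intervals overlapped for at least 1 nose list and not for both. With the best 50000 lines, 44.8% (42.9 to 46.8) and 38.3% (36.4 to 40.2) stood in at least 1 nose list, and the intervals did not overlap. Single genes had few regions each. At Vgll2, 6 of the 8 maxillary-label regions stood in a nose list, at Osr2 5 of 5, and at Hand2 0 of 5.

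Among regions called in all 4 jaw libraries, few moved far in rank. The worse rank of one label was at least 4 times better than the better rank of the other in 126 regions (0.205%) for the maxillary label and 144 (0.235%) for the mandibular label. The largest maxillary shift was at the promoter of Socs6, a suppressor of cytokine signalling, which ranked 94 and 97 in the maxillary-label lists and 1418 and 2588 in the mandibular-label ones. A region in an intron of Dgki, nearest to Ptn, which encodes the growth factor pleiotrophin, ranked 15980 and 14469 against 163319 and 145194. Regions nearest to Tbpl2, Usp29 and Xcl1 followed. The largest mandibular shift, 89.4 kb from Rybp, a Polycomb partner, ranked 6046 and 6684 against 78250 and 91286, and regions nearest to Themis, Kcnj16, Cdh9 and Olfr675 followed. Of the genes in the 17 lists, Fgf8, the epithelial signal that maintains the first arch, was the nearest gene to 1 maxillary-shifted region, and no mandibular-shifted region had a list gene nearest. None of the 11 check genes was among them.

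Most of the 10 best-ranked differing regions per label lay far from start sites. The first of the maxillary label, at chr5:55049138-55050062, ranked 13841 and 12920 and stood 1051 kb from Stim2, the nearest gene. Others lay in introns of Cntnap5c (nearest start Pdzph1), Plod2, a collagen-modifying enzyme, Pkhd1, Agbl1 and Fggy, at an exon of Dlgap1, and nearest to Odf1, to Pdgfc, a platelet-derived growth factor needed for palate closure, at 185 kb, and to Marcks at 722 kb. The first of the mandibular label, at chr17:94039649-94040304, ranked 16935 and 17534 and stood 710 kb from Mettl4. The next ones lay in introns of Eif3e, Mef2a, a muscle factor, and Nhsl1, in an intron of a noncoding gene nearest to Gsdmc, and nearest to Lacc1, Aga, Rps29, Pik3c3 and Pcdh17. Within the best 50000 lines of both of their lists stood 251 maxillary-label and 128 mandibular-label regions.

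The sequences under the summits, which the choice of regions did not use, held some motifs at different shares in the regions of the labels. The intervals treat windows as independent and cover counting error only, and each label rests on 2 libraries. Windows of 100 bp on both sides of each region's strongest summit were searched on both strands for 19 motifs, and a match is a run of letters, not a bound site. CAGCTG stood in 23.2% of maxillary-label windows (95% Wilson interval 22.5 to 24.0) and 14.1% of mandibular-label windows (13.5 to 14.8), on either side of 17.6% for regions of all 4 libraries and 17.3% for all merged regions. TGTGGTT, the Runx core, showed the opposite order, with 4.38% (4.05 to 4.74) and 9.42% (8.89 to 9.97), against 5.06% and 5.72%. AGGTCA, the core letters read by nuclear receptors, stood in 11.8% and 7.76%, against 7.59% and 9.35%. TAATTA, the letters read by Dlx and Lhx homeodomains, stood in 7.25% and 4.64%, against 3.61% and 4.92%. The motif atgcaaat of Pou factors (0.805% and 1.81%) and tgattnat of Hox with Pbx (2.43% and 3.95%) leaned to the mandibular label.

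The motif shares were then read in regions the comparison had left out. Of the regions called in a single jaw library, 30893 and 13345 were those of maxillary replicates 1 and 2 and 16722 and 18882 those of mandibular replicates 1 and 2. CAGCTG stood in 17.0% and 20.2% of the single-library regions of the maxillary label and in 13.8% and 13.8% of those of the mandibular label. TGTGGTT stood in 4.92% and 3.90% against 8.20% and 6.32%, and TAATTA in 5.88% and 6.24% against 4.69% and 5.02%. For AGGTCA the values were 10.8% and 12.4% against 7.97% and 10.5%. For these 4 motifs the libraries of the labels did not overlap, in the same order as among the differing regions, which is the most that 2 libraries against 2 can show (smallest exact permutation p 0.333). The 4 were chosen after their values were seen, so the same was read for all 19 motifs. For 10 the shares did not overlap between the labels, each in the order seen among the differing regions, and for the other 9 they overlapped. With labels dealt at random to the 4 libraries, the shares of a motif would stand apart with a probability of 0.333. The intervals of opposite labels overlapped for the nuclear receptor, Tead, Pitx and Gsc, AP-1, Pou and forkhead motifs. The 10 were these 4 and the Tead, Pitx and Gsc, Hox with Pbx, AP-1, Pou and forkhead motifs. Of regions called in both nose lists and no jaw list, 7287 in all, 15.1% held the E-box, 4.35% the Runx motif and 7.12% the homeodomain motif, and 875 regions held the nuclear receptor motif.

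**Figure D5:**
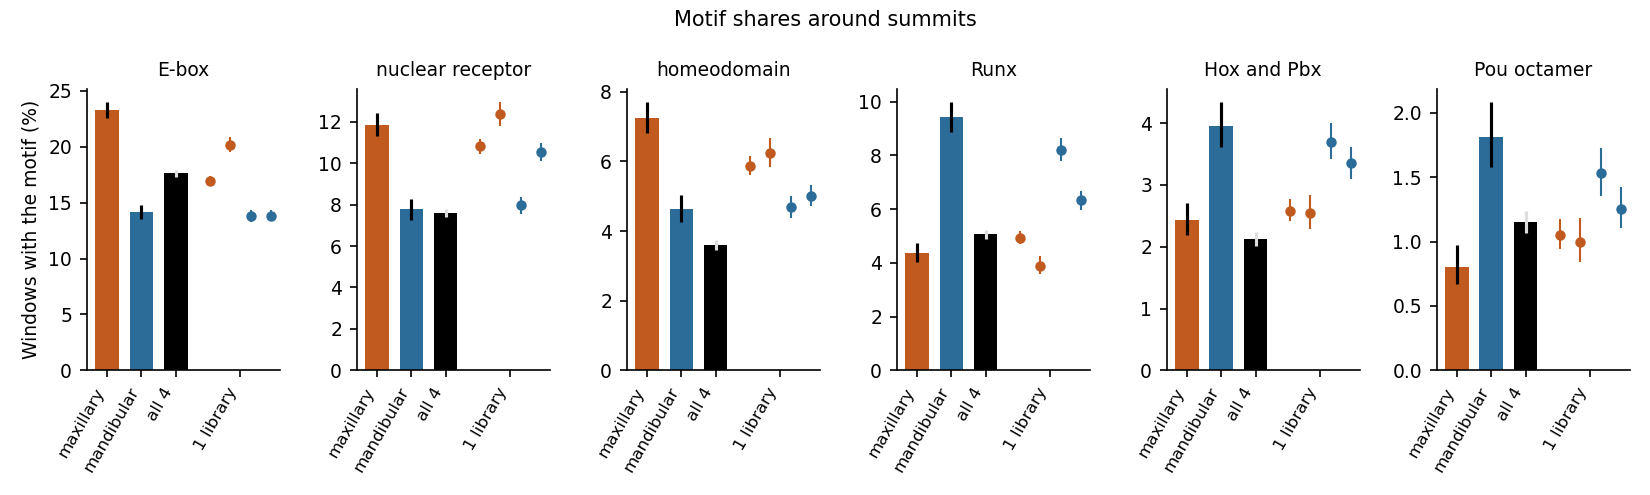
Share (%) of windows around summits with each of 6 motifs, in maxillary-label regions, mandibular-label regions and regions called in all 4 jaw libraries (bars), and in regions called in 1 library only (points, from left maxillary replicates 1 and 2 in orange and mandibular replicates 1 and 2 in blue), with 95% Wilson intervals. The E-box is CAGCTG, the nuclear receptor motif AGGTCA and the homeodomain motif TAATTA; the orange points lie on the same side of the blue ones as the bars do in all 6 panels.

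Of the other motifs, the largest difference was that of GGAATG of Tead factors, with 16.3% and 13.4%, a gap of 2.88 percentage points against 2.61 for TAATTA. The E-box CATCTG, bound by Hand and Twist factors, stood in 24.7% and 26.4% and TGACAG of Meis and Pbx in 18.8% and 18.3%. AGATAA of Gata factors stood in 8.76% and 9.23%, TAATCC of Pitx and Gsc homeodomains in 8.27% and 6.55%, and the AP-1 motif TGANTCA in 6.38% and 7.83%. The median G and C content of the windows was 46.8% for the maxillary label and 44.8% for the mandibular label, against 51.7% for regions of all 4 libraries, and the part of base composition in the motif shares was not tested. Without promoters, the CAGCTG shares were 23.4% and 14.2% and the TGTGGTT shares 4.45% and 9.69%.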

How the data were processed

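Peak lists of 4 jaw libraries (2 per label) and 2 nose libraries, all of E11.5 wild-type mouse face, were used as deposited, one list per library. Bowtie2 and SAMtools are named in the submitters' processing notes with the build mm10, and the peak caller is not given in the sources used here. Each deposited line holds a score, a fold over background (ratio), a −log10 p and a −log10 q, as the authors' caller wrote them, and a summit. A broad interval with several summits fills several lines, and read depth is unknown. The −log10 q, then the fold, ranked lines within a list, and neither was compared between lists. Lines tied at the end of a list (23031 in mandibular replicate 2, 9443 of them kept) were taken at random with a fixed seed.

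Regions were assigned to the nearest start site of 21827 protein-coding genes (GENCODE M21 basic). Gene and window splits were tested by exact two-sided binomial tests with Benjamini-Hochberg adjustment at 0.05, and checked on simulated splits. Shares carry 95% Wilson intervals, which cover counting error only. The regions, gene lists and motifs were chosen with earlier results of these data known. Named were the 11 check genes (1 more gene of the rule is not reported here), the 12 genes of largest net number per label, up to 2 members per list and label with a net number of at least 2, and the genes of the 10 best regions, 5 top windows and 5 largest rank shifts per label. The tools were scipy 1.17.1, pandas 2.3.3, numpy 2.4.6, pysam 0.24.0 and matplotlib 3.10.9 under Python 3.11.15.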

Additional observations from a re-analysis of the deposited data

How the results depend on the processing

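No paired analysis was possible because a region that differs in both libraries of each label already differs within each same-numbered pair, so that a replicate block has nothing to change. The labels tie no libraries together by number, although lines on chromosome Y split by it.

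No gene passed the exact binomial test under any of the alternatives run, with 0 to 104 genes at an unadjusted p under 0.05, and windows passed only without mandibular process replicate 1 (1 window; lowest to highest over the libraries left out 0 to 1). The number of differing regions depended on the list length. Maxillary- and mandibular-label regions numbered 5994 and 5518 with the best 100000 lines, 2592 and 2459 with the best 50000 and 7149 and 6624 when absent from the whole lists of the other label too, and 13662 and 21019 in whole lists, where the maxillary excess turned. With tied lines kept, an alternative chosen after seeing the data, they were 12587 and 12386. Gene and window tests used the split of the same setting. Leaving out 1 library at a time gave 18626 to 47557 maxillary-label and 17001 to 31289 mandibular-label regions, since a region then needs fewer libraries.

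The promoter shares were 1.77% and 2.75% within 500 bp, 4.14% and 4.55% with the best 100000 lines, 2.61% and 4.35% in whole lists, 2.52% and 3.70% ranked by fold and 1.85% and 3.26% when absent from whole lists too. With the best 50000 lines they were 8.99% and 6.26%, a maxillary minus mandibular difference of 2.73 percentage points that reversed the main one, and the cause was not tested. The mandibular share was 4.39% with 150000 distinct intervals, 4.64% merged over 6 libraries and 4.66% with all tied lines kept. Without 1 library, the shares were 3.53% to 4.60% and 5.66% to 8.99%.

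The shares also called in nose were 22.4% and 20.6% in both nose libraries, 43.1% and 41.0% with the best 100000 lines, 46.1% and 46.1% with lists cut to the shortest, 46.7% and 48.7% in whole lists, 39.2% and 39.5% at a cover of 50% or 200 bp and 31.3% and 35.3% when absent from whole lists too. They were 46.7% and 47.1% with tied lines kept. They were 44.8% and 38.3% with the best 50000 lines. The mandibular share was 43.9% merged over 6 libraries, and the maxillary share 45.1% ranked by fold. Without 1 library, they were 26.9% to 53.5% and 32.8% to 57.0%. Rank shifts numbered 1429 and 1603 at a ratio of 2, 223 and 348 ranked by fold, and 325 to 478 and 386 to 572 without 1 library.

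Of the 61 named genes, 4 kept the order of their counts under every alternative run for them, Hand2, Fzd5, Phactr2 and Sfrp2, and most of the others lost it with the best 50000 or 100000 lines, where few regions remain per gene. The lists with a maxillary share above the genome-wide one numbered 8 to 13 of 17 over the alternatives. With 50 bp on both sides of the summit, CAGCTG stood in 14.2% and 7.94% of the windows and TGTGGTT in 2.36% and 5.05%, in the order of the wider windows. Depth limits all counts, since a region missing from a list may be a peak below its end.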
